A study of Homo sapiens with 4 samples.

Results

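Messenger RNAs that encode splicing proteins and RNA helicases were examined for N7-methylguanosine (m7G) in HepG2, a human hepatocellular carcinoma cell line cultured without special treatment. Genes were chosen by symbol, with earlier results of these data known. The genes were those starting with HNRNP, SRSF, RBM, DDX, DHX, SF3A or SF3B, PRPF, SNRN or PTBP and the kinases CLK1 to CLK4. They held 46 of the 3355 peaks of IP replicate 1, in 34 of its 2511 genes, and 61 of the 4747 peaks of IP replicate 2, in 44 of its 3205 genes. In all, 45 of the 3769 genes listed at least once belonged to these families. The study sequenced poly(A) RNA of untreated HepG2 cells as input (2 samples) and after pull-down with an anti-m7G antibody (2 samples). The values are the authors' peak lists, 1 per IP sample. A peak is a stretch of mRNA called as enriched, with the authors' own fold enrichment and p-value. Separate cultures are not stated for the IP samples, so the spread between the lists may be technical. The lists carry no read depth, and folds of single peaks therefore have no interval. All samples come from the same cell line, and input levels were not analysed here. A gene without a peak can therefore lack mRNA or lack enough m7G enrichment for a peak to be called.

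m7G is best known as the base of the cap at the 5' end of every mRNA, where it serves export, stability and translation, and it has also been mapped inside mRNAs. The proteins encoded here act on RNA themselves. Small nuclear ribonucleoproteins and their SF3A, SF3B and PRPF partners form the spliceosome, SR proteins and heterogeneous nuclear ribonucleoproteins (hnRNPs) choose splice sites around it, CLK kinases phosphorylate SR proteins, and DDX and DHX helicases remodel RNA and its complexes with ATP. Many SR and hnRNP genes are known to limit their own expression through alternative exons that expose the mRNA to decay.

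Peaks that covered part of the first 50 bases of the mRNA in both lists were found in 6 genes. The first 30 bases of these genes are shown because they place the edge of the peak on the sequence. Capitals mark the bases that lie within a peak in both lists; lower case marks bases outside it. The sequences run 5' to 3' from the start site in the RefSeq promoter table (GRCh38.p14), written as DNA.
HNRNPA0: ctctttgtgtggtGCCCAGATAGGGGAGCG
HNRNPA3: CTCAAAATGGAGGTAAAACCGCCGCCCGGT
HNRNPDL: GAGGCCGCGCGGGGCCCGGGCTTCGGCCGA
HNRNPL: agtgtctgCTCTTTTCGATCCGGGACGGCC
SRSF4: gcgtgctcgcgtaCGTCGCCGGGGTTCGGC
SRSF9: cccttcgcttccgctccgcgttcCCACAAT
The peaks began at base 1 or upstream of it in HNRNPA3 and HNRNPDL, at base 9 in HNRNPL, at base 14 in HNRNPA0 and SRSF4 and at base 24 in SRSF9. In each of these genes the first covered base was the same in both lists. HNRNPA0 starts on the minus strand at chromosome 5, 137754363; HNRNPA3 on the plus strand at chromosome 2, 177212794; HNRNPDL on the minus strand at chromosome 4, 82430225; HNRNPL on the minus strand at chromosome 19, 38852347; SRSF4 on the minus strand at chromosome 1, 29181900; and SRSF9 on the minus strand at chromosome 12, 120469748. For HNRNPDL this start lies 237 nt inside the RefSeq gene span. Of the 44 member genes with an entry in the promoter table, these 6 make 13.6% (95% Wilson interval 6.40 to 26.7%), against 14.1% of all 2922 protein-coding genes with a peak and an entry. In either list the first 50 bases were reached in 15 members (34.1%, 21.9 to 48.9%) and in 29.4% of all such genes, so the member shares lay near the background.

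The start sequences differed among the members. The first base was G in 21 of the 44 genes (47.7%), A in 17 (38.6%), C in 6 (13.6%) and T in 0. Over all 2922 genes with a peak the shares were 43.7% G, 42.7% A, 12.7% C and 0.856% T, near those of the members. Over 15843 protein-coding promoters outside chromosome 8 the shares were 36.2% G, 50.7% A, 11.3% C and 1.74% T. Of the genes printed above, HNRNPA0, HNRNPA3 and SRSF9 start with C, HNRNPDL and SRSF4 with G and HNRNPL with A. The median GC content of the first 50 bases was 67.0% in members, 72.0% in all genes with a peak and 64.0% in all protein-coding genes. The letters GGA, searched on the RNA strand in these 50 bases, were present in 31 of 44 members (70.5%). They were present in 69.0% of all genes with a peak and in 67.0% of protein-coding genes. The longer GGACT, which contains GGA, occurred in 1 member, HNRNPUL1 (2.27%), against 5.07% of genes with a peak and 4.81% of protein-coding genes. CTTTT occurred in 3, HNRNPL, RBM15B and RBM42 (6.82%), against 3.15% and 4.15%.

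Most members with a peak in replicate 1 had one in replicate 2. Peaks in both lists were found in 33 of the 45 genes (73.3%, 95% Wilson interval 59.0 to 84.0%), beside 51.7% of all genes with a peak. When only the 50% of peaks with smaller p-values were kept, the order turned, with 15 of 33 members (45.5%) and 49.9% of all genes. Over the full lists, the 33 genes with peaks in both were 97.1% of the 34 members of replicate 1, where the value over all genes was 77.5%. They were 75% of the 44 members of replicate 2, where the value over all genes was 60.7%. RBM26, an RNA-binding protein with a fold of 8.35, was the member with a peak in replicate 1 alone, and 11 genes had one in replicate 2 alone. The latter were HNRNPA2B1, RBM10, RBM12, RBM42, DDX42, DHX15, DHX34, DHX36, DHX38, PRPF6 and SNRNP25. The 15 peaks of these 11 genes had a median fold of 3.03 and a median -log10 p of 4.22, and the other 46 member peaks of replicate 2 had 3.30 and 7.74. Replicate 2 held more peaks over all genes as well, and the part this has in the count was not tested.

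The families differed in how many of their genes carried peaks. Among the 171 RefSeq protein-coding genes whose symbols fit the rule, 126 had no peak and 45 had one in either list (26.3%, 95% Wilson interval 20.3 to 33.4%), beside 18.7% of all 20056 protein-coding genes. In both lists it was 33 (19.3%, 14.1 to 25.9%), beside 9.67%. The hnRNP genes stood at 13 of 26 in both lists with 1 more in replicate 2, SR genes at 4 of 12, RBM genes at 5 of 44, DDX genes at 2 of 38 and DHX genes at 1 of 16 with 4 more in replicate 2. The counts in both lists were 3 of 9 for SF3A/SF3B, 2 of 7 for SNRNP, 2 of 3 for PTBP, 1 of 4 for CLK and 0 of 12 for PRPF, where PRPF6 had a peak in replicate 2. Differences between families were not tested, and expression of the genes without a peak was not measured.

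**Figure D1:**
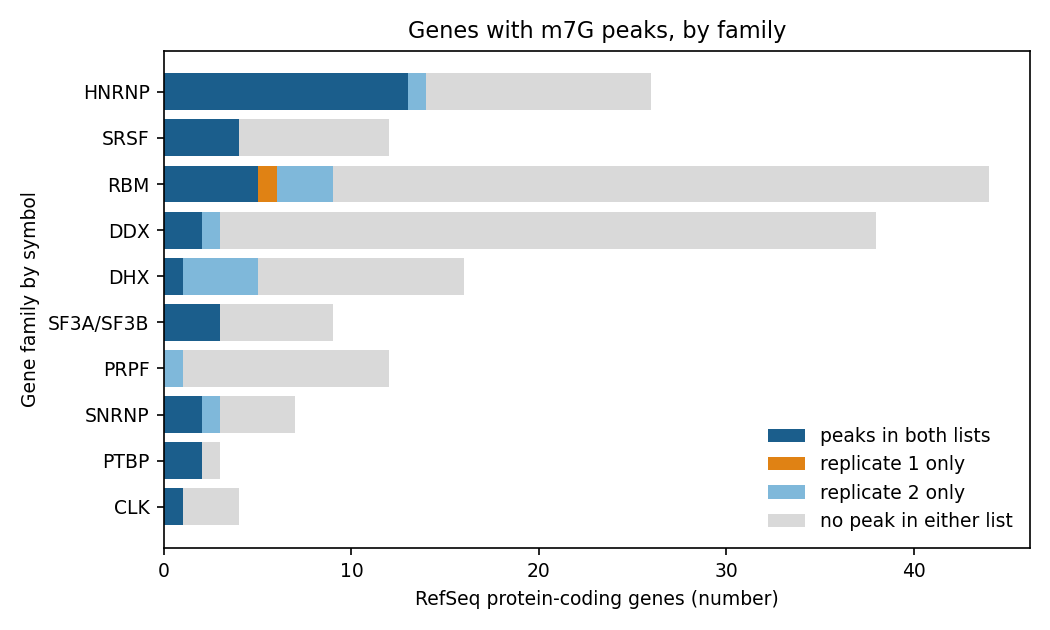
Number of RefSeq protein-coding genes in each family with m7G peaks in both lists, in replicate 1 only, in replicate 2 only, or in neither. Of the 171 genes, 33 have peaks in both lists, 13 of them hnRNP genes, and 4 of the 5 DHX genes with a peak have it in replicate 2 only.

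Peak by peak, 38 of the 46 in replicate 1 (82.6%, 95% Wilson interval 69.3 to 90.9%) overlapped a replicate 2 peak of the same gene and strand by at least 50% of the shorter peak, beside 65.1% of all peaks. In replicate 2 the count was 37 of 61 (60.7%, 48.1 to 71.9%), beside 45.4%. Matched one to one, they gave 37 shared peaks in 31 genes. DHX37 and SF3B4 had peaks in both lists, but none that met this overlap. In DHX37, a helicase of small ribosomal subunit assembly, the folds were 3.44 and 2.97 in replicate 1, where the midpoints lay 17586 and 18954 nt before the gene's 3' end, and 3.54 in replicate 2, where it lay 7303 nt before it. In SF3B4, a subunit of the U2 snRNP, the fold was 1.5 in each list, at peaks from 149923674 to 149923993 and from 149923614 to 149923704 on chromosome 1 that overlap only in part.

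Over all their peaks the members had a lower median fold than all genes in both lists, but not at shared peaks of replicate 2. The median was 3.06 in replicate 1 (interquartile range 2.15 to 4.78), beside 3.71 over all peaks, and 3.12 in replicate 2 (2.15 to 6.11), beside 3.87. At shared peaks it was 3.06 in replicate 1, beside 3.80 over all shared peaks, and 4.22 in replicate 2, beside 3.98, so the order turned there. The mean of the medians over all member peaks was 3.09 ± 0.0389 (SD, n = 2). Members spanned folds from 1.35 to 37.1 in replicate 1 and from 1.19 to 21.5 in replicate 2. At shared peaks, 25 of 37 pairs of folds (67.6%, 95% Wilson interval 51.5 to 80.4%) lay within 1.5 times of each other, beside 72.6% over 2128 shared peaks of all genes, and 6 (16.2%) were over 2 times apart, beside 10.8%. The median ratio of the higher to the lower fold was 1.23, and 1.25 over all shared peaks. Spearman's rho of the folds was 0.88 across the 37 peaks and 0.80 across all 2128, a description only, since the same sites and perhaps the same input stand behind both lists. The fold was higher in replicate 2 at 22 of the 37 peaks (59.5%), beside 54.9% overall.

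**Figure D2:**
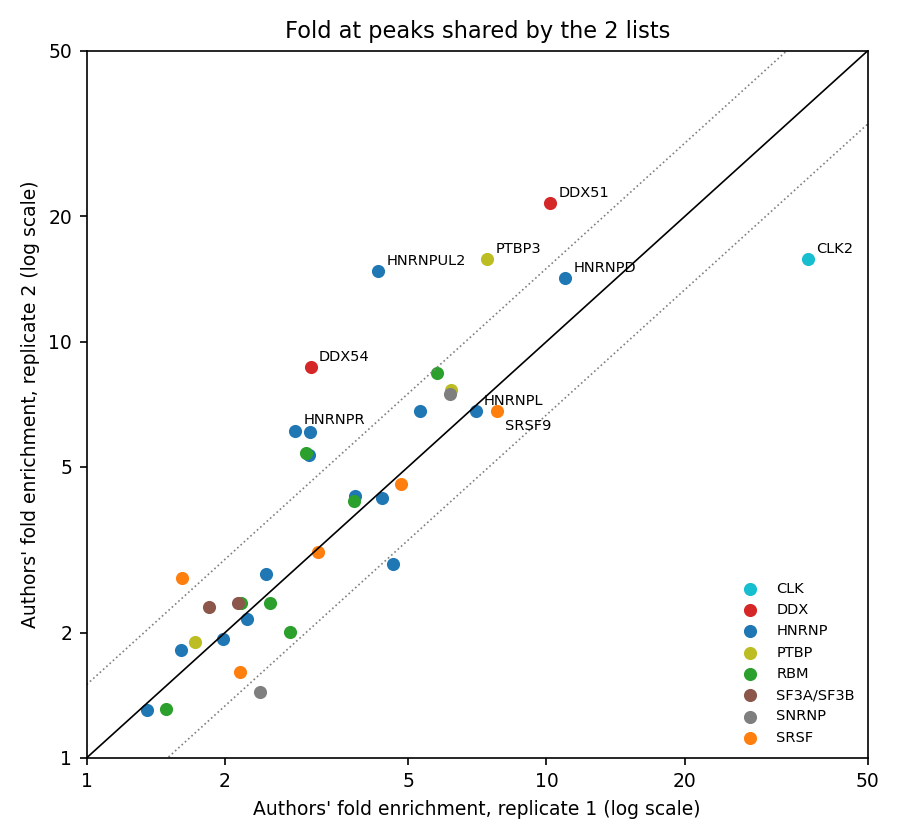
Authors' fold enrichment in replicate 1 (horizontal) and replicate 2 (vertical), both on log scales, for the 37 shared peaks, coloured by family; the solid line marks equal folds and the dotted lines a ratio of 1.5. CLK2 lies below the dotted band with 37.1 and 15.8, and DDX51, DDX54, HNRNPUL2, HNRNPR and PTBP3 lie above the band, with folds over 2 times higher in replicate 2.

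CLK2, the kinase of SR proteins, had the highest fold of any member in replicate 1. Its peak ran from 155273320 to 155273410 on chromosome 1 with a fold of 37.1 (-log10 p 5.07), and in replicate 2 from 155270948 to 155273380 with a fold of 15.8 (-log10 p 5.28). The folds were 2.35 times apart, and both values are tied with other peaks. The fold of 37.1 was listed for 18 peaks of replicate 1 and 15.8 for 35 peaks of replicate 2. In replicate 1 the peak was a single block of 91 nt with its midpoint 139 nt from the 5' end, whereas in replicate 2 it was 210 nt long and jumped a gap of 2223 nt.

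The SR proteins, which bind exonic enhancers and recruit the splicing machinery, had peaks in SRSF1, SRSF4, SRSF9 and SRSF11. SRSF9 had the strongest of them, with a fold of 7.79 in replicate 1 and 6.81 in replicate 2. It had the same boundaries in both lists, 120469487 to 120469725 on chromosome 12, and a -log10 p of 39.7 and 23.1. SRSF4 carried a peak at the 5' end and another in the 3' part of the gene. The one at the 5' end, with its 5' edge at 29181887 on chromosome 1 in both lists, had folds of 4.82 and 4.55 (-log10 p 5.30 and 11.2). The other, 1141 and 1156 nt before the 3' end, had 3.18 and 3.12 (-log10 p 6.01 and 7.34). These SRSF4 folds thus differed less between the lists than between these sites. SRSF1, the founding member of the family, had low folds of 2.15 and 1.61 at a site 793 and 823 nt into the gene (-log10 p 5.73 and 2.89), from 58006363 to 58006958 on chromosome 17 in replicate 1 and from 58006393 to 58006452 in replicate 2. SRSF11 had 1.61 and 2.71 (-log10 p 3.60 and 10.7), ending at 70221756 and 70221815 on chromosome 1. The midpoints of the SRSF11 peaks lie 16015 nt from the 5' end of the gene span, but 331 nt after the start that the promoter table gives. In replicate 2 the peak also has a block with its edge 76 nt from the 5' end of the span. Its gap, from 70205781 to 70221614, contains the start of the promoter table, 70221380. In replicate 1 the peak is a single block, and its place along the mRNA depends on the start chosen.

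The hnRNP genes contributed 17 peaks in replicate 1 and 21 in replicate 2, of which 15 pairs were shared. HNRNPL, a regulator that binds CA-rich RNA, had the smallest p-value of all members in both lists. Its fold was 7.02 in replicate 1 and 6.80 in replicate 2, with -log10 p of 198 and 137. The peak had the same 3 blocks in both lists, 210 nt in total, and ran from 38846044 to 38852339 on chromosome 19. Its gaps of 1225 and 4861 nt were identical, and its 5' block is the one printed above that begins at base 9 of the mRNA. By its midpoint, 4973 nt from the 5' end in genomic distance, the same peak would be placed inside the gene. A second HNRNPL peak, near 3945 nt from the 3' end, was in replicate 1 only with a fold of 1.37.

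HNRNPD, also called AUF1, a binder of AU-rich elements, had the highest folds of the hnRNP genes in replicate 1 (11, -log10 p 67.7), and 14.2 in replicate 2 (-log10 p 90.2). The stretch of 328 nt from 82373461 to 82373788 on chromosome 4 lay wholly within the replicate 2 peak of 536 nt. HNRNPUL2 had the largest difference between the lists of any shared member peak, 4.30 against 14.8, a ratio of 3.44. Its 3' edge lay at 62724355 on chromosome 11 in both lists. The peak was 570 nt long in replicate 1 and 839 nt in replicate 2 (-log10 p 11.1 and 16.3). Another HNRNPUL2 peak, of 5.62, was in replicate 2 only. HNRNPU, which binds chromatin-associated RNA, had folds of 5.32 and 6.80 over 629 and 719 nt, with -log10 p of 60.7 and 109. The 3' edge of the HNRNPU peak lay at 244862625 on chromosome 1 in both lists. HNRNPR also had folds over 2 times apart, 2.84 in replicate 1 and 6.11 in replicate 2 (-log10 p 4.05 and 10.6), at peaks from 23310676 to 23310766 and from 23310706 to 23310915 on chromosome 1.

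HNRNPA0 had 2 peaks in replicate 1 and 3 in replicate 2. The weaker, at the mRNA start, had folds of 1.98 and 1.93, and the stronger, centred 986 and 942 nt from the 5' end, had 3.83 and 4.25 with -log10 p of 69.6 and 66.0. A further HNRNPA0 peak, in replicate 2 alone, had a fold of 1.7. HNRNPDL, a paralogue of HNRNPD, had folds of 4.40 and 4.22 at its start site and 1.60 and 1.82 further in, with another peak of 2.58 in replicate 2. For 4.22 the list holds 77 peaks of replicate 2 with the same value. The folds of HNRNPA3 were 4.64 and 2.92 at its start, those of HNRNPLL, known for splicing of CD45 in lymphocytes, 3.05 and 5.33, and those of HNRNPM 3.06 and 6.07, with a further HNRNPM peak of 3.48 at the 5' end in replicate 2 only. HNRNPAB had 2.45 and 2.77 at a peak of 3 blocks, and a short peak of 61 nt with a fold of 4.24 in replicate 1 that lay in part within the replicate 2 peak. HNRNPK, a poly(C)-binding protein, had the lowest shared folds, 1.35 and 1.30, and HNRNPUL1 had 2.23 and 2.15 at identical boundaries and another of 1.42 in replicate 2 only. HNRNPA2B1 had a single peak in replicate 2 with a fold of 1.73. Reads of near-identical copies, such as processed pseudogenes of hnRNP genes, cannot be told apart in these lists.

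The polypyrimidine tract-binding proteins, repressors of exons flanked by pyrimidine-rich RNA, differed in how firmly they were called. PTBP1 had folds of 6.20 and 7.64 with -log10 p of 82.9 and 125 at a peak of 418 and 448 nt that starts at 811045 on chromosome 19 in both lists. A second PTBP1 peak joined 4 blocks with the same 3 gaps in both lists and had folds of 1.72 and 1.90. PTBP1 was one of the genes with 3 peaks in replicate 2, the last with the lowest fold of all members, 1.19. PTBP3 had higher folds, 7.42 and 15.8, but -log10 p of 3.13 and 4.36. Its peaks of 61 and 91 nt share the 3' edge at 112333544 on chromosome 9. Its 7.42 is the commonest fold of replicate 1, listed for 107 peaks, and 15.8 is the value also listed for CLK2. Relative to the start in the promoter table, the PTBP3 midpoint lay at -548 nt in replicate 1 and at -563 nt in replicate 2, that is, upstream of it.

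Among spliceosome components, SNRNP70, the U1-70K protein that helps to recognise the 5' splice site, had folds of 6.16 and 7.49 with -log10 p of 43.8 and 57.4. Its peak was 626 nt long in replicate 1 and 715 nt in replicate 2, with the midpoint 541 and 526 nt from the 3' end of the gene on chromosome 19, and it ended at 49108375 and 49108435. SF3A2, a subunit of the U2 snRNP, had the longest peak of replicate 1 members, 721 nt, also close to the 3' end (426 nt), and 661 nt in replicate 2, starting at 2247869 on chromosome 19 in both. Its folds of 2.13 and 2.36 were low beside its -log10 p of 65.9 and 49.7. SF3A1, of the same snRNP, had 1.85 and 2.31 (-log10 p 5.50 and 12.6) at a shared peak on chromosome 22, from 30337163 to 30338803 and from 30337702 to 30338832, and a peak 51 nt from the 5' end with a fold of 3.71 in replicate 1 only. SNRNP200, the helicase that unwinds U4 from U6, had 2.38 and 1.44 (-log10 p 12.5 and 4.03) at a shared peak on chromosome 2, from 96283305 to 96283697 and from 96283577 to 96283667. A second SNRNP200 peak, in replicate 1 only, had 1.68. SNRNP25, of the minor spliceosome, had a fold of 7.38 in replicate 2 at 118 nt from the 5' end, a value listed for 33 peaks. PRPF6, of the U4/U6.U5 tri-snRNP, had 2.13 in replicate 2 at 140 nt from the 5' end.

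The RBM genes are a group by symbol with varied roles, and 5 of the 9 with a peak had one in both lists. RBM38, which stabilises the CDKN1A mRNA, had peaks near the 3' end in both, with folds of 5.77 and 8.43 (-log10 p 3.22 and 7.25) at 152 and 212 nt from it and of 2.17 and 2.36 at 1693 and 1663 nt. RBM15B, a partner of the m6A methyltransferase, had folds of 3.0 and 5.39 (-log10 p 4.27 and 8.13) at the peak nearest its 5' end, which ends at 51391716 on chromosome 3 in both lists, 2.50 and 2.36 at the next, and 2.35 at one found in replicate 2 only. RBM33 had 3.82 and 4.14 (-log10 p 4.92 and 5.61) near 155711353 on chromosome 7, and another peak of 4.33 in replicate 1 only. RBM3, a cold-inducible protein, had identical boundaries in both lists on chromosome X, 48577962 to 48578141, with folds of 2.77 and 2.01 (-log10 p 23.4 and 9.97). RBM39, a U2AF-related splicing factor, had 1.49 and 1.31 close to the 5' end. RBM12 had 3 peaks in replicate 2, with folds of 2.79, 1.55 and 2.60 from the 5' end onward, while RBM10 and RBM42 had 3.32 and 2.65.

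Among the DDX and DHX genes, peaks were shared in 2, both DEAD-box proteins of the nucleolus. DDX51, which acts in large ribosomal subunit assembly, had the highest member fold of replicate 2, 21.5 (-log10 p 11.1), and 10.2 in replicate 1 (-log10 p 6.50). Its peak ran from 132143864 to 132144096 on chromosome 12 in replicate 1 and from 132143804 to 132144126 in replicate 2, across the same gap of 83 nt. DDX54 had 3.07 and 8.70, 2.83 times apart, at peaks of 120 and 388 nt from 113163184 to 113164095 and from 113162949 to 113164214 on chromosome 12 (-log10 p 3.55 and 10.3). DDX42, an SF3B-associated helicase, had 3.93 in replicate 2. None of the DHX genes had a shared peak. DHX36, which unwinds G-quadruplexes, had a fold of 10.8 in replicate 2 at 185 nt from the 5' end, and DHX34, of nonsense-mediated decay, had 8.43, a value listed for 32 peaks. DHX15, which releases spliced lariats, had 3.03, and DHX38, the second-step splicing helicase, had 3 peaks in replicate 2 with folds of 3.22, 2.88 and 3.56 from the 5' end onward.

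Fold and p-value ranked the members differently. A -log10 p over 30 in both lists was found at 7 shared peaks, a limit chosen after the values were seen. The 7 peaks were those of HNRNPL, PTBP1, HNRNPD, HNRNPU, HNRNPA0, SF3A2 and SNRNP70. Their folds ran from 2.13 to 11 in replicate 1 and from 2.36 to 14.2 in replicate 2, and their lengths from 210 to 721 nt in replicate 1. HNRNPD combined both, with the second highest member fold of replicate 1 and one of the smallest p-values. CLK2, DDX51 and PTBP3, with the 3 highest member folds of replicate 2, had -log10 p between 3.13 and 11.1. Member peaks not shared had a median -log10 p of 4.43 in replicate 1 and 4.19 in replicate 2, where shared ones had 5.87 and 10.3. Their median folds were 3.21 unshared against 3.06 shared in replicate 1, and 2.83 against 4.22 in replicate 2, so the order turned between the lists.

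The position of member peaks was taken from the midpoint along the blocks to the 5' end of the RefSeq gene span. Within 200 nt of that end, or beyond it, lay 7 of 46 peaks in replicate 1 (15.2%, 95% Wilson interval 7.57 to 28.2%) and 12 of 61 in replicate 2 (19.7%, 11.6 to 31.3%), beside 27.4% and 21.7% of all peaks. The mean was 17.4% ± 3.15 (SD, n = 2). Both backgrounds lay within the members' intervals. Of the 37 shared peaks, 4 fell within this distance in both lists, in HNRNPA0, HNRNPA3, SRSF4 and SRSF9. The same count over all shared peaks was not made. By gene, 4 of the 44 members with a promoter entry had a peak within this distance in each list. Over all genes with a peak and an entry it was 437 of 2922. The midpoint counts leave out a shared HNRNPDL peak, 59 and 74 nt after the start in the promoter table. They also leave out the DDX42 peak of replicate 2, 139 nt after that start. In both genes the RefSeq span begins further upstream, and all counts here use the span. Measured from the 5' edge of the peak in place of its midpoint, the members numbered 11 of 46 (23.9%) and 21 of 61 (34.4%), beside 36.4% and 30.8%. HNRNPL, HNRNPLL and HNRNPAB enter in this way in both lists, and RBM39 in replicate 1. CLK2, DDX51, HNRNPUL2, RBM15B and SRSF11 enter in replicate 2. So does HNRNPD, with its edge 25 nt from the 5' end against 203 nt in replicate 1. Within 200 nt of the 3' end lay 1 member peak in each list, RBM38 in replicate 1 (2.17%, beside 3.52%) and DHX38 in replicate 2 (1.64%, beside 3.46%).

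Relative to the length of the gene, 18 of 46 midpoints in replicate 1 (39.1%, 95% Wilson interval 26.4 to 53.5%) and 24 of 61 in replicate 2 (39.3%, 28.1 to 51.9%) lay in the first 10% of the span, beside 43.9% and 38.7% of all peaks, so the members were near the background. In the last 10% lay 7 of 46 (15.2%, 7.57 to 28.2%) and 12 of 61 (19.7%, 11.6 to 31.3%), beside 26.0% and 26.6%. The members' shares were lower there in both lists, within their counting intervals. The span includes introns, so these places are not positions along the spliced mRNA.

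**Figure D3:**
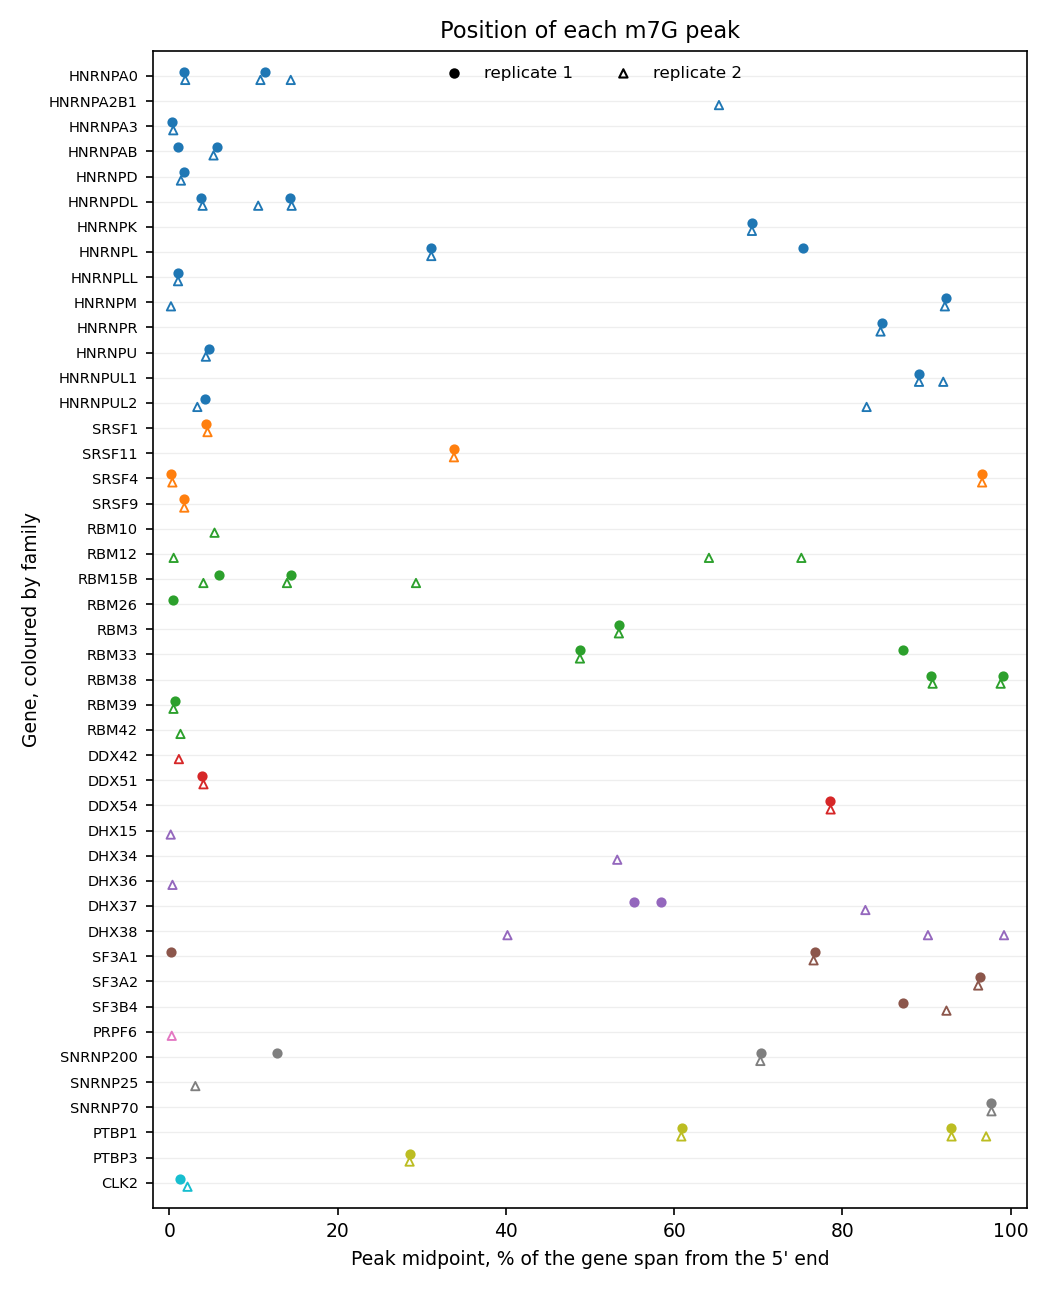
Midpoint of every peak of the 45 genes, as a percentage of the gene span from the 5' end, with filled circles for replicate 1 and open triangles for replicate 2, coloured by family. Points of the 2 lists fall together in most genes with peaks in both, at the left edge in HNRNPA3, HNRNPD, SRSF9 and CLK2 and at the right edge in SF3A2, SNRNP70 and RBM38, while DHX37 has its peaks at different places in the lists.

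Peaks of these genes often joined more than 1 block. This was so for 20 of 46 peaks in replicate 1 (43.5%, 95% Wilson interval 30.2 to 57.8%) and 25 of 61 in replicate 2 (41%, 29.5 to 53.5%), beside 26.4% and 28.2% of all peaks. The backgrounds lay below the members' intervals in both lists. These intervals take each peak as separate, though some genes hold several and many sites are in both lists. No test was run, and the number of exons of these genes was not measured. The 26 gaps of replicate 1 had a median of 794 nt and ran from 74 nt in HNRNPAB to 10789 nt in HNRNPLL, and the 33 of replicate 2 had a median of 1335 nt and reached 21816 nt in RBM10. Exactly the same gap was present in both lists for 17 of them, in 12 genes. That was 65.4% of the replicate 1 gaps, beside 61.4% over all genes, and 51.5% of the replicate 2 gaps, beside 41.9%. The authors' blocks may follow a transcript model, so a gap does not by itself show that reads crossed it.

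The length of member peaks had a median of 150 nt in replicate 1 and 151 nt in replicate 2, where all peaks had 151 nt in both. At shared peaks the median was 151 nt in replicate 1, beside 181 nt over all shared peaks, and 211 nt in replicate 2, beside 210 nt. Of the shared member peaks, 25 of 37 were longer in replicate 2 (67.6%, beside 52.9% of all shared peaks). More blocks in replicate 2 were seen at 8 (21.6%, beside 11.4%). Both boundaries were identical at 4, SRSF9, HNRNPL, HNRNPUL1 and RBM3 (10.8%, beside 10.3%). More than 1 peak was found in 12 of 34 members in replicate 1 (35.3%, beside 23.9%) and in 11 of 44 in replicate 2 (25%, beside 30.2%), so this count lay above the background in one list and below it in the other. With 3 peaks each in replicate 2, HNRNPA0, HNRNPDL, PTBP1, RBM12, RBM15B and DHX38 had the most; no member had 3 in replicate 1.

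**Figure D4:**
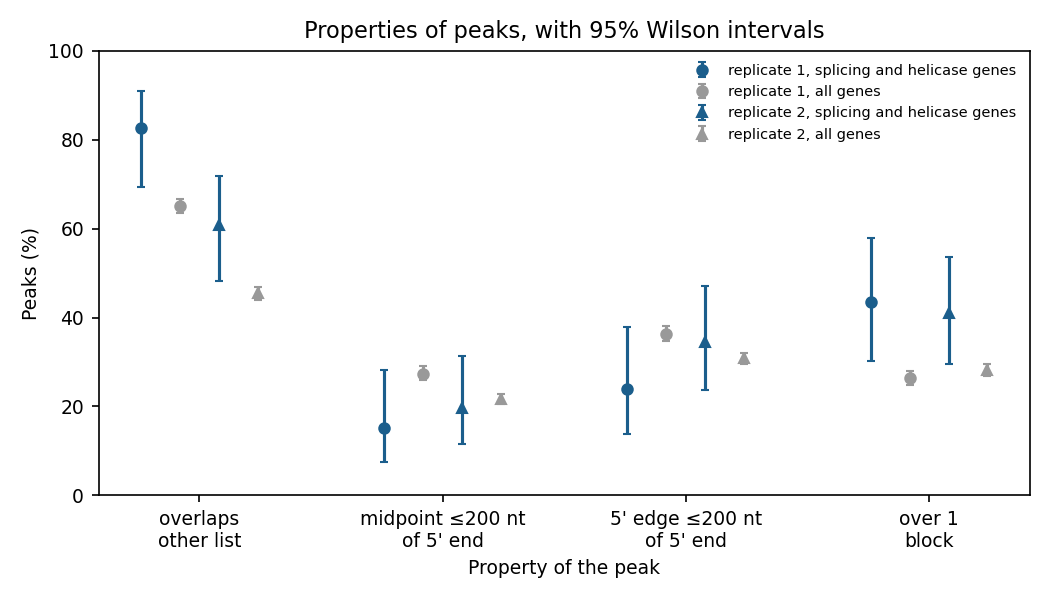
Percentage of peaks with each of 4 properties, for the splicing and helicase genes (blue) and all genes (grey), with circles for replicate 1, triangles for replicate 2 and bars for 95% Wilson intervals. The share that overlaps the other list is 82.6% and 60.7% in these genes and 65.1% and 45.4% in all genes, and the share of more than 1 block is 43.5% and 41% against 26.4% and 28.2%.

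Other genes of splicing, mRNA export and RNA unwinding outside these symbols were read from a list of 134 genes. Of these, 28 had peaks in both lists, 2 in replicate 1 only, 9 in replicate 2 only and 95 in neither. Among all protein-coding genes, 9.67% had peaks in both lists. Of the 39 listed genes with any peak, 71.8% had them in both, next to 73.3% of the members and 51.7% of all genes with a peak. A shared peak was present in 26, with median folds of 3.71 and 4.21. Ranked by the poorer of their ranks by fold in the lists, the first 6 were THOC6 of the mRNA export complex THO (19.1 and 23.2), RBFOX2, a splicing regulator that binds GCAUG (13.0 and 19.0), TAF15, an RNA-binding protein (6.74 and 9.78), U2AF2, which binds the polypyrimidine tract of introns (5.71 and 5.81), RALY, an hnRNP relative (3.87 and 5.06), and FUBP3 (3.85 and 8.43). Of these, THOC6, RALY and FUBP3 had the midpoint within 200 nt of the 5' end in both lists, as did 10 of the 26. The same count over all genes was not made. As a check of the cell line, 10 of 20 hepatocyte and HepG2 genes had peaks in both lists. Among them were APOA1, APOB and FOXA2, while ALB, TTR and AFP had none. Of 18 genes of immune, vascular, fibroblast and neuronal cells, CD68, LYZ and ACTA2 had peaks in both lists. Both counts stand beside 9.67% of all protein-coding genes, and expression was not measured.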

How the data were processed

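m7G IP and input libraries of HepG2 poly(A) RNA were prepared as stranded mRNA libraries, per the labels' protocols. The submitters' processing notes name STAR and the build GRCh38, with no version or role stated. Which peak caller was run is not given in the sources used here. Each of the 2 deposited peak lists gives a p-value, log10 p and log10 FDR scores and a fold (a ratio) per peak, all the authors' own. The weakest deposited FDR score had a -log10 of 1.32 in both lists. Starts are given 1-based, and coordinates run from the lower to the higher position on either strand.

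Member genes, families and lists were chosen with earlier results of these data known. Peaks were placed on RefSeq gene spans of GRCh38.p14 through their symbols, which matched directly for 3213 peaks in replicate 1 and 4540 in replicate 2, and as older symbols for 139 and 199. The remaining 3 and 8, none of a member gene, were left out of positions. Peaks were shared when at least 50% of the shorter one overlapped in exon blocks. A 5' or 3' end meant a midpoint within 200 nt of it. Exon, UTR and coding classes were not analysed here, and only start sequences were read (44 of 45 members; RBM39 had no entry). No test was run, since each sample has 1 list and no counts. Wilson intervals (95%) cover counting error only. Fold, -log10 p and a position at the leading shared peak were given for up to 4 genes per family, by the poorer rank of fold. The same was given for members over 2 times apart. Members with 3 or more peaks or in 1 list only, and remaining members, were given with at least their folds. For the pathway list the top 6 by the same ranking were named. Overlap and position code was tested on simulated lists. The software was pandas 2.3.3 and numpy 2.4.6 under Python 3.11.15, with matplotlib 3.10.9 for figures and scipy 1.17.1 for intervals and rank correlations.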

Additional observations from a re-analysis of the deposited data

How the results depend on the processing

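No result carried a test, so each alternative is a second value. The share of members with peaks in both lists, 73.3%, was 68.9% with an overlap of 50% of the shorter peak (45.3% over all genes). It was 71.1% with 1 shared base (46.5% over all genes) and 65.9% for folds of at least 2, not computed over all genes. It was 31.1% with 80% reciprocal overlap (19.3% over all genes). When only the 50% of peaks with smaller p-values were kept, it was 45.5% (49.9% over all genes). The order of members and background thus turned for the smaller p-values, and the cause was not tested. For the smaller-p peaks no other value over all genes was computed. The share of peaks shared, 71.6% as a mean of the lists, fell to 30.5% with 80% reciprocal overlap (34.8% and 26.2% in the lists, beside 23.8% and 16.8% of all peaks). Folds within 1.5 times made up 82.4% of shared peaks among the smaller-p peaks and 87.5% with 80% reciprocal overlap, and 83.8% were within 2 times. The mean of median folds, 3.09, became 3.64 for the smaller-p peaks, 4.11 with 1 peak per gene, by construction higher, and 3.64 for shared peaks. The 5'-end share, 17.4%, was 13.1% for the smaller-p peaks, 7.63% in a window of 100 nt (12.3% and 8.55% of all peaks), 32.7% in one of 500 nt (39.4% and 33.9% of all peaks) and 29.2% from the peak's 5' edge, which was chosen after seeing the data. The median length, 150.5 nt as a mean of the lists, was 218 nt for the smaller-p peaks, 158 nt with 1 peak per gene and 181 nt for shared peaks. Genes with more than 1 peak fell from 30.1% to 15.6% among the smaller-p peaks, and pathway genes in both lists from 28 to 17. Leaving out one replicate in turn returned the value of the other list, so it was no separate check. These values ranged from 60.7 to 82.6% (peaks shared), 3.06 to 3.12 (fold) and 15.2 to 19.7% (5' end). They ranged from 150 to 151 nt (length) and 25 to 35.3% (several peaks per gene). The share of peaks shared needs both lists in either case. No paired analysis was possible because input values were not analysed here. Depth, which these lists do not give, sets which weak peaks pass a caller.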
